A study of Mus musculus with 48 samples.

Results

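The genes described here are 9 genes of glycogen and glucose metabolism: Ppp1r3g, Ppp1r3b, Ppp1r3c, Gys2, Pygl, Pck1, G6pc, Fbp1 and Pklr. They were chosen by name, with their values in the liver comparison of late restriction with late refeeding in view, from 25913 genes in the deposited tables. Ppp1r3g led the choice because it was high in restricted liver. The liver values of these 9 genes below are therefore a description with no test. The rule used no fat values, and these were tested. All 9 genes were in all 3 tables. After the filter on low counts, 9 were kept in liver, 8 in white fat (all except Ppp1r3g) and 7 in brown fat (all except G6pc and Pklr).

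Glycogen is the glucose polymer that liver, muscle and, in small amounts, fat store after a meal and break down between meals. Glycogen synthase builds it, glycogen phosphorylase degrades it, and protein phosphatase 1 switches both enzymes towards storage when one of its glycogen-targeting subunits (the Ppp1r3 family) brings it to the particle. In fasting, the liver adds gluconeogenesis, the making of glucose from lactate, amino acids and glycerol, while in fat the same enzyme Pck1 supplies glycerol 3-phosphate for re-esterifying fatty acids (glyceroneogenesis).

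RNA was sequenced from female mice of the C3B6F1 hybrid strain, of the liver and of white (WAT) and brown (BAT) fat, and 48 libraries were used. AL mice ate without limit, and DR (dietary restriction) mice received 60% of what AL mice ate, from 12 weeks of age. Late switches came at 24 months: ALDR mice, fully fed until then, went onto restriction, and DRAL mice, restricted until then, were fed without limit. Young ALDR mice went from full feeding onto restriction at 12 weeks and were studied at 5 months, after 2 months of it. The age of 26 months on the labels of old mice is used here, although the treatment text gives 27 months. All mice were housed 5 to a cage on the same chow, restriction was brought in by steps, and all were killed in the hours before the restricted mice would have been fed. WAT had 3 AL and 3 ALDR libraries at 5 months and 3 AL, 3 DR, 5 ALDR and 5 DRAL libraries at 26 months, BAT had the same except for 3 DRAL libraries, and liver had 3 libraries each of ALDR and DRAL at 26 months. The BAT libraries called ALDR here are titled ADRL and were grouped by their description, a switch to restriction. Which tissues share a mouse is not labelled. The labels name epididymal fat although the mice were female, so the depot is uncertain. The labels call the samples biological replicates and name no animals, so the p-values measure the spread between these samples.

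Library totals were 12247161 to 22500246 counts in WAT, 6075585 to 19349912 in BAT and 14678489 to 22893099 in liver. On these raw totals, a count of 3 corresponded to 0.133 to 0.245, 0.155 to 0.494 and 0.131 to 0.204 CPM (counts scaled to library size), which covers counting error only. The CPM elsewhere use adjusted library sizes, so 3 counts can lie slightly outside these ranges there. The tissue labels matched their markers: 5 adipocyte markers summed to 13489 to 26539 CPM in WAT and to at most 4.13 CPM in liver, 5 brown fat markers summed to 3236 to 8751 CPM in BAT and at most 94.8 CPM in WAT, and 8 hepatocyte markers summed to 66171 to 92309 CPM in liver. Some libraries stood apart. In WAT, AL replicate 3 and ALDR replicate 2 at 26 months and AL replicate 2 at 5 months held 1398 to 2116 CPM of albumin (Alb), against 16.5 to 113 CPM in the other 19. In liver, 4 libraries (ALDR replicates 1 and 3, DRAL replicates 1 and 2) held 1626 to 1752 counts of the heart gene Myh6, 147 to 170 of the heart gene Nppa and 11 to 20 of 4 Y-chromosome genes, while ALDR replicate 2 and DRAL replicate 3 held 0 of each. These genes were chosen after their values were seen, and the part such reads play in the results was not tested beyond the values given with and without these libraries. Skeletal muscle markers varied between libraries of both fat depots, as given beside the results they touch.

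The liver comparison asked how restriction started late differed from full feeding resumed late, 3 libraries against 3. Ppp1r3g, Pck1, Gys2 and G6pc were higher in ALDR liver, and Pygl and Ppp1r3c were lower, with no library of one group inside the range of the other. The groups of Fbp1 did not overlap either. Over the whole liver table, 23.8% of 12761 genes had an edgeR adjusted p under 0.05 in this comparison. Nothing is read from the counts of listed genes here, because this comparison chose them. The 5 epithelial markers, all detected, summed to 197 to 275 CPM in ALDR and 458 to 520 CPM in DRAL. Nearly all of that sum was Krt8 (150 ± 30.0 and 325 ± 24.9 CPM) and Krt18 (77.2 ± 11.5 and 161 ± 13.7 CPM), keratins that hepatocytes also express, with Cdh1 (0.269 to 0.705 and 0.9002 to 1.12 CPM) also lower in ALDR without overlap. Epcam (0.539 to 0.893 and 0.687 to 1.06 CPM) and Krt19 (0.404 to 1.03 and 0.816 to 1.68 CPM) overlapped. The 8 hepatocyte markers summed to 78718 to 92309 CPM in ALDR and 66171 to 79382 CPM in DRAL. The part of these markers' cells in the liver values was not tested.

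Ppp1r3g encodes a glycogen-targeting subunit of protein phosphatase 1 (mouse chromosome 13, 35958839 to 35970388, plus strand, GRCm38). It held 15.6, 24.9 and 17.7 CPM in the 3 ALDR livers, from 232, 530 and 338 counts. In the 3 DRAL livers it held 0.635, 0.429 and 0.3004 CPM, from 12, 10 and 5 counts. All ALDR libraries were far above all DRAL libraries. The group means were 19.4 ± 4.88 and 0.455 ± 0.169 CPM (SD, n = 3 each). The fitted difference was 5.39 ± 0.29 (SE) on the log2 scale, or 41.9-fold. On mean CPM alone, the log2 ratio was 4.97 within the 4 libraries with heart-gene counts and 6.37 between the 2 without, a pair with no replicate check. The annotation places an antisense gene, Gm30127, over this locus, and whether the counting used strand is not given in the sources used here.

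The promoters of 7 listed genes were in the RefSeq table (GRCm38.p6), which gives 250 bases before and 50 after the start site; Ppp1r3b and Gys2 had no entry. Of these, 5 are shown, those of genes whose liver groups did not overlap, apart from Fbp1 with its small difference: Ppp1r3g, Pck1 and G6pc were higher in ALDR, and Ppp1r3c and Pygl were lower. Each is written 5′ to 3′ on the gene's strand, with matches to 4 short motifs in capitals. The motifs were the core of the cAMP response element (TGACG or CGTCA), the E-box CACGTG, a forkhead core (TGTTTAC or GTAAACA) and the TATA box (TATAAA or TTTATA), searched on both strands, and no matches overlapped each other.
Ppp1r3g, chr13:35967656-35967955, plus strand: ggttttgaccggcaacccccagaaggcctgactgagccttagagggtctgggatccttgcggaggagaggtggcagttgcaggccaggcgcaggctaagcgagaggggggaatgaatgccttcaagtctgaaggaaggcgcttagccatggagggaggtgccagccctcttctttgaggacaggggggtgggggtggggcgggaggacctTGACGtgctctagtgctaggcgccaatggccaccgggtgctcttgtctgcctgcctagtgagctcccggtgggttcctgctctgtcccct
Pck1, chr2:173152823-173153122, plus strand: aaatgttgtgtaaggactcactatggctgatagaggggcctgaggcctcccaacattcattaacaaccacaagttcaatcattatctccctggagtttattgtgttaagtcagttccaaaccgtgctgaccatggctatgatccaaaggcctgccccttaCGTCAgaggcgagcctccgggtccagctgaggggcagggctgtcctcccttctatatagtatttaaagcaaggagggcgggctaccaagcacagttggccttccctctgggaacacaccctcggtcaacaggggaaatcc
G6pc, chr11:101367466-101367765, plus strand: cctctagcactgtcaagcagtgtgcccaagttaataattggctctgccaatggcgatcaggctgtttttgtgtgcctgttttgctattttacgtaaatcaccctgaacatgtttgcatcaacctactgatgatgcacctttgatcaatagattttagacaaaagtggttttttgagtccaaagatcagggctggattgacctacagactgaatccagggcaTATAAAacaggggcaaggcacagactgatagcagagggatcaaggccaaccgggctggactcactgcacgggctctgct
Ppp1r3c, chr19:36736555-36736854, minus strand: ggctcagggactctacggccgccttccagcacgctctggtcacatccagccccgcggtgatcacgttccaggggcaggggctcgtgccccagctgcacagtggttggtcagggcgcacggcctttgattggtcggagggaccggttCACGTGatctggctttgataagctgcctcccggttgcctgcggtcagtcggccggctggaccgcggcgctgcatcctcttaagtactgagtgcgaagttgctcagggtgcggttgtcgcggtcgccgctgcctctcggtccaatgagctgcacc
Pygl, chr12:70227634-70227933, minus strand: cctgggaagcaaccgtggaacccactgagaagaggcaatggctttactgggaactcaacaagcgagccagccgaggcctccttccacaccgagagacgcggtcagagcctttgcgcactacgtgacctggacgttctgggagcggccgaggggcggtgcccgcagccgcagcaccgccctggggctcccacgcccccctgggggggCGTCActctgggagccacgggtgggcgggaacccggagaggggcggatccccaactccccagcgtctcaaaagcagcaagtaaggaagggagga

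The cAMP response element core lay at -40 in Ppp1r3g, -90 in Pck1 and -44 in Pygl, counted to the leftmost base of the match from the start site. It was present in 20.8% of all 32851 promoters of this length in the table. The E-box matched once in Ppp1r3c, at -104 (7.15% of promoters), and the TATA box at -29 in G6pc and in 1 of the 2 Pklr promoters (13.6%). No forkhead core was in these windows (3.65%). The core thus stood both in genes that were higher and in 1 that was lower in ALDR liver, and such matches are a description of the letters. The G+C content was 63.0% in Ppp1r3g, 65.3% in Ppp1r3c and 67.0% in Pygl, and 52.0% in Pck1 and 46.7% in G6pc, against a median of 52.7% over the table. RefSeq starts Ppp1r3g and Pygl kilobases inside the gene models of the annotation used for their positions.

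The other 2 listed targeting subunits did not share the direction of Ppp1r3g in liver. Ppp1r3c, the subunit also called PTG (chromosome 19, 36731731 to 36736653, minus strand), held 83.3, 79.5 and 118 CPM in ALDR and 137, 161 and 194 CPM in DRAL livers. Each ALDR value was below each DRAL value, and the log2 fold change was -0.81 ± 0.17 (SE). Ppp1r3b, a subunit abundant in liver (chromosome 8, 35375739 to 35388139, plus strand), held 479, 334 and 451 CPM in ALDR and 406, 632 and 438 CPM in DRAL livers. Its groups overlapped, with a log2 fold change of -0.22 ± 0.19. Of the 3 listed subunits, Ppp1r3b was the most abundant per kilobase of annotated exon, at 67.8 ± 12.3 and 79.1 ± 19.7 CPM per kb (SD, n = 3) in ALDR and DRAL. Ppp1r3g reached only 7.205 ± 1.81 CPM per kb in ALDR, below the 34.3 ± 7.77 CPM per kb of Ppp1r3c in the same livers. The 4 further subunits tested, from the list of glycogen genes, had log2 fold changes of 0.81 ± 0.30 (Ppp1r3a), 0.67 ± 0.28 (Ppp1r3e), 0.32 ± 0.49 (Ppp1r3d) and 0.14 ± 0.12 (Ppp1r3f), and none of them was called by edgeR.

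The 2 enzymes that make and break the polymer differed in opposite directions. Gys2, liver glycogen synthase (chromosome 6, 142422613 to 142473109, minus strand), held 205, 220 and 179 CPM in ALDR and 100.1, 95.9 and 90.4 CPM in DRAL livers. The lowest ALDR library was well above the highest DRAL library, with a log2 fold change of 1.08 ± 0.11. Pygl, liver glycogen phosphorylase (chromosome 12, 70190811 to 70231488, minus strand), held 350, 385 and 383 CPM in ALDR and 567, 588 and 623 CPM in DRAL livers. It was lower in every ALDR library, with a log2 fold change of -0.67 ± 0.10. Per kilobase, Gys2 stood at 75.8 ± 7.96 and Pygl at 54.0 ± 2.81 CPM per kb in ALDR, while in DRAL Gys2 stood at 35.9 ± 1.83 and Pygl at 86.0 ± 4.12. On this scale the order of synthase and phosphorylase transcript was exchanged between the groups, and the bars of 1 SD did not overlap in either. In CPM, Pygl stood above Gys2 in every library of both groups. The exchange thus rests on the annotated exon lengths, 6895 bases for Pygl and 2657 for Gys2, and whether these fit the transcripts present was not tested.

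Among the gluconeogenic enzymes, Pck1 (cytosolic phosphoenolpyruvate carboxykinase, which commits oxaloacetate to glucose synthesis; chromosome 2, 173153048 to 173159273, plus strand) held 3725, 4802 and 4435 CPM in ALDR livers. In DRAL livers it held 1889, 894 and 535 CPM. DRAL replicate 1 lay well above the other 2 DRAL libraries, yet below every ALDR library, and the log2 fold change was 1.97 ± 0.37. The log2 ratio of mean CPM was 1.55 within the 4 libraries with heart-gene counts and 3.17 between the 2 without. G6pc, the catalytic subunit of glucose-6-phosphatase that releases free glucose (chromosome 11, 101367561 to 101377903, plus strand), held 805, 953 and 882 CPM in ALDR and 542, 357 and 374 CPM in DRAL, again without overlap (1.05 ± 0.16). Fbp1, a fructose bisphosphatase of gluconeogenesis (chromosome 13, 62864753 to 62888282, minus strand), held 1327, 1588 and 1488 CPM against 1187, 1279 and 1274 CPM. Its groups did not overlap, but the difference was small, 0.24 ± 0.11.

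Pklr, the liver pyruvate kinase that runs the last step of glycolysis (chromosome 3, 89136142 to 89146784, plus strand), held 221, 156 and 195 CPM in ALDR and 201, 256 and 274 CPM in DRAL livers. ALDR replicate 1 exceeded DRAL replicate 1, so the groups overlapped (log2 fold change -0.36 ± 0.16). Per kilobase, the order of mean levels in ALDR liver was Pck1 (1260 ± 160 CPM per kb), Fbp1 (862 ± 77.5), G6pc (365 ± 30.6), Gys2, Ppp1r3b, Pklr (58.9 ± 10.1), Pygl, Ppp1r3c and Ppp1r3g. In DRAL liver Fbp1 came before Pck1, at 733 ± 30.3 and 323 ± 205 CPM per kb, and Gys2 came next to last in rank, far above Ppp1r3g (0.169 ± 0.0627 CPM per kb). The means of Gys2, Ppp1r3b, Pklr and Pygl in ALDR liver lay between 54.0 and 75.8 CPM per kb, close enough that neighbours in this order lay within 1 SD of each other. The 9 genes kept the sign of their log2 ratio both within the 4 libraries with heart-gene counts and between the 2 without.

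**Figure D1:**
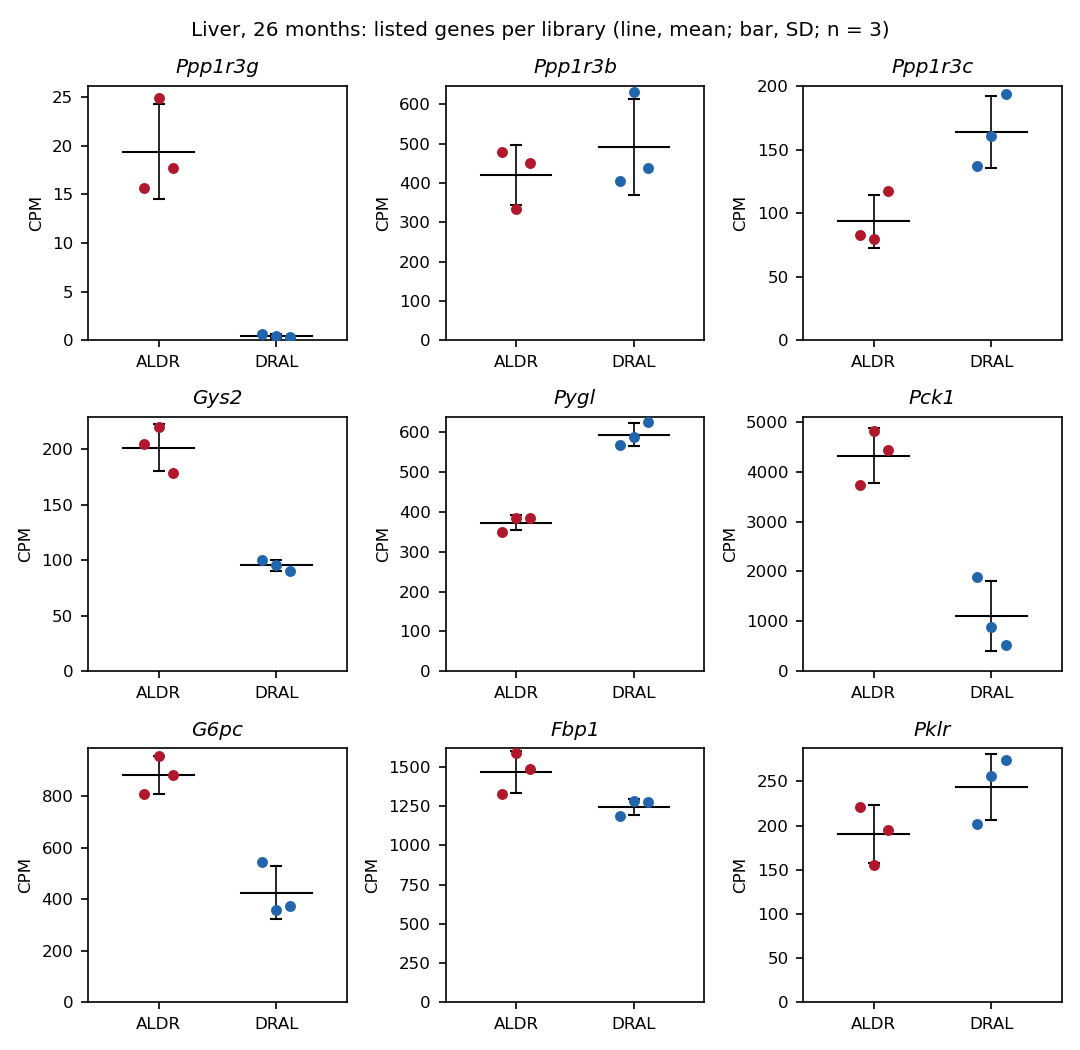
CPM (linear axes from 0) of the 9 listed genes in 3 ALDR and 3 DRAL livers at 26 months, 1 point a library, with the mean (line) and SD (bar). Ppp1r3g sits at 15.6 to 24.9 CPM in ALDR and at most 0.635 CPM in DRAL, while the groups overlap for Ppp1r3b and Pklr.

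Other genes of the pathway in liver came from 4 lists of 88 genes, of which 86 were tested. The lists were chosen with earlier results of these data known, so their shares, here and in both fat depots, are a description. An edgeR adjusted p under 0.05 was reached by 19 that were higher and 8 that were lower in ALDR, which is 31.4% of those tested beside the 23.8% over all genes. The median log2 fold change was 0.16 over these 86 genes and -0.0048 over all genes tested. By list, 4 of 25 further glycogen genes, 7 of 31 of gluconeogenesis and glycolysis, 12 of 22 regulators and 4 of 8 of glyceroneogenesis passed. Igfbp1, a secreted insulin-like growth factor binding protein repressed by insulin, had a mean of 146 ± 58.2 CPM in the ALDR livers against 15.5 ± 6.73 CPM in the DRAL livers (SD, n = 3). Irs2, an adaptor of the insulin receptor, averaged 54.5 ± 11.5 and 16.5 ± 1.58 CPM, and Lpin1, a phosphatidate phosphatase and coactivator, 137 ± 28.2 and 51.9 ± 10.4 CPM. Lower in ALDR were Srebf1, a transcription factor of lipid synthesis (215 ± 63.7 and 632 ± 139 CPM), Gpd1, glycerol 3-phosphate dehydrogenase (264 ± 37.3 and 478 ± 57.3 CPM), and Ppp1ca, a catalytic subunit of protein phosphatase 1 (192 ± 13.7 and 326 ± 53.2 CPM).

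The genes whose level followed Ppp1r3g most closely over the 6 livers were Npm1, Golim4, Fnip1, Eci2 and Lpin2, with Pearson correlations of log2 CPM from 0.996 to 0.999 among 12066 genes. The 6 points fall into the 2 diet groups, so the values mostly restate the difference between ALDR and DRAL. Of the listed genes, Gys2 came closest (0.991) and Pygl ran opposite (-0.981), with Pck1 at 0.936, G6pc at 0.964 and Ppp1r3c at -0.905.

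In WAT, Pck1 rose in DR and in ALDR against AL, at 5 and at 26 months. Pygl and Ppp1r3c were high in lifelong restriction and lower in both switch groups. Gys2 fell under restriction in young mice. G6pc, Fbp1, Pklr and Ppp1r3g were near 0 in most libraries. Tests used edgeR's quasi-likelihood method on all 22 libraries, with Benjamini-Hochberg (BH) adjustment over 15828 genes, and a gene is called changed at an adjusted p under 0.05. Because fat holds several cell types, fewer cells of a type and less RNA per cell cannot be told apart here.

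Pck1 held 1009, 1272 and 1371 CPM in AL and 4282, 5705 and 2968 CPM in DR fat at 26 months. The ALDR libraries held 3654, 4131, 3845, 1646.5 and 3975 CPM, and the DRAL libraries 2071, 1839, 1613, 2027.5 and 1925 CPM. All DR and ALDR libraries were above all AL libraries, and ALDR replicate 4 was the only ALDR library inside the DRAL range. At 5 months Pck1 held 537, 888 and 1411 CPM in AL and 5836, 6399.5 and 5074 CPM in ALDR fat, with no overlap. The order of means was ALDR at 5 months (5769.8 ± 665 CPM), DR (4318 ± 1369), ALDR at 26 months (3450 ± 1023), DRAL (1895 ± 182), AL at 26 months (1217 ± 187) and AL at 5 months (945 ± 440).

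At 26 months, 3 of the 8 listed genes tested in WAT were called in DR against AL, all higher, beside 26% of all genes. They were Pygl, Pck1 and Ppp1r3c. Pck1 rose by 1.83 ± 0.32 on the log2 scale (± SE, edgeR BH-adjusted p = 0.000472). In ALDR against AL, 1 of 8 was called, beside 4.36% of all genes, and it was Pck1 (1.503 ± 0.30, edgeR BH-adjusted p = 0.00922, higher in 5 of 5 ALDR libraries than in any AL library). That call was lost without AL replicate 1, with an edgeR adjusted p of 0.0561, in a fit of the compared groups alone (0.0538) and without the 3 libraries with high albumin (0.0583), out of a range of 1.22e-05 to 0.0583 over 16 settings. Pck1 did not differ between ALDR and DR beyond the spread (-0.32 ± 0.28, edgeR BH-adjusted p = 0.469), an interval that still holds a difference of either sign. After refeeding it fell by 1.19 ± 0.27 on the log2 scale against DR (edgeR BH-adjusted p = 0.00347).

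The young mice gave the larger Pck1 estimate. In ALDR against AL at 5 months, 3 of 8 listed genes were called (2 higher, 1 lower), beside 29.2% of all genes, and Pck1 rose by 2.61 ± 0.33 (edgeR BH-adjusted p = 2.73e-05). The restriction response at 26 minus that at 5 months was -1.11 ± 0.42 for Pck1, which did not pass (edgeR BH-adjusted p = 0.176, 0.0628 to 0.347 over 22 settings). No listed gene was called in that difference by edgeR, beside 1.34% of all genes; 3 of 8 had an unadjusted p under 0.05, and DESeq2 called 0.

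Pygl, here the phosphorylase of fat, held 191, 178 and 305 CPM in AL and 1073, 741 and 1046 CPM in DR fat at 26 months. The groups were far apart, and Pygl rose by 2.09 ± 0.25 (edgeR BH-adjusted p = 1.34e-05). ALDR fat held 477, 294, 394, 312 and 346 CPM and DRAL fat 349, 285, 470, 283 and 391 CPM. Both switch groups lay below every DR library and close to each other. In ALDR against DR, 2 of 8 listed genes were called, both lower, beside 12.8% of all genes: Pygl (-1.39 ± 0.21, edgeR BH-adjusted p = 0.000464) and Ppp1r3c. In DRAL against DR, 3 of 8 were called, all lower, beside 30.5% of all genes, and Pygl changed by -1.42 ± 0.21 (edgeR BH-adjusted p = 0.000105). These comparisons share the 3 DR libraries.

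Against AL at 26 months, Pygl in ALDR fat was 0.70 ± 0.22 higher on the log2 scale, which missed the threshold (edgeR BH-adjusted p = 0.0735, 0.0225 to 0.25 over 16 settings). AL replicate 3, one of the libraries with high albumin, held the highest AL value. Without it the estimate was 0.98 and passed (edgeR BH-adjusted p = 0.0383). At 5 months Pygl held 304, 260 and 391 CPM in AL and 998, 950 and 789 CPM in ALDR fat and rose by 1.52 ± 0.24 (edgeR BH-adjusted p = 0.000185). The response at 26 minus that at 5 months was -0.82 ± 0.32 and did not pass (edgeR BH-adjusted p = 0.182).

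Ppp1r3c also had its highest mean in DR among the old groups of WAT. It held 32.6, 22.2 and 37.9 CPM in AL, 60.2, 73.3 and 112 CPM in DR, 36.6, 38.1, 23.1, 36.9 and 34.4 CPM in ALDR, and 29.7, 41.2, 66.9, 36.1 and 56.5 CPM in DRAL fat. DR stood above AL and ALDR without overlap and overlapped DRAL through DRAL replicate 3. It rose by 1.41 ± 0.30 in DR against AL (edgeR BH-adjusted p = 0.00187) and was lower by 1.28 ± 0.25 on the log2 scale in ALDR than in DR (log2 fold change -1.28, edgeR BH-adjusted p = 0.00358). DRAL fell by 0.83 ± 0.25 against DR (edgeR BH-adjusted p = 0.0192), a call lost without DR replicate 3 (0.17) and with only the groups compared (0.0593). At 5 months it held 47.3, 30.3 and 46.8 CPM in AL and 49.8, 54.8 and 39.5 CPM in ALDR fat, which overlapped (0.21 ± 0.29, edgeR BH-adjusted p = 0.62).

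Skeletal muscle markers were higher in every DR than in every DRAL library of WAT, and overlapped between DR and the other groups of the same age. The 8 muscle markers, all detected in the 3 DR libraries, summed to 315, 4147 and 13542 CPM there, to 733, 52.8 and 45.5 CPM in AL, to 15.2 to 2949 CPM in ALDR and to 20.6 to 52.0 CPM in DRAL fat. A fit with muscle and liver marker levels as covariates was also run. Its liver covariate included Cyp2e1, which itself differed with diet, at 1952 to 2808 CPM in DR and 183 to 390 CPM in AL. With these covariates, Pygl and Pck1 kept their calls in DR against AL (log2 fold changes 2.33 and 1.79). Ppp1r3c was no longer called there, at 1.10 (edgeR BH-adjusted p = 0.056), nor in ALDR against DR, at -1.002 (0.0955), nor in DRAL against DR, at -0.38 (0.645). Pck1 was no longer called in DRAL against DR, at -1.05 (0.194). Without covariates these 4 estimates were 1.41, -1.28, -0.83 and -1.19. At 5 months the muscle sums were 35.4 to 70.2 CPM in AL and 33.4 to 58.7 CPM in ALDR fat. Macrophage markers (5 genes, all detected) also moved with diet, from 1718 to 3048 CPM in AL to 440 to 706 CPM in DR at 26 months, with 1132 to 1785 CPM in ALDR and 1098 to 2375 CPM in DRAL, and from 1486.5 to 2524 CPM in AL to 726 to 1007 CPM in ALDR at 5 months. Their part in the levels of the listed and other pathway genes was not tested.

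Gys2, the liver-type synthase, showed no called change with lifelong restriction in WAT. It held 20.0, 9.83 and 36.0 CPM in AL, 25.5, 17.6 and 13.8 CPM in DR, 9.0, 12.6, 15.7, 25.6 and 7.81 CPM in ALDR and 26.4, 30.6, 35.5, 17.97 and 43.0 CPM in DRAL fat at 26 months. DR overlapped AL, and ALDR overlapped DRAL only through ALDR replicate 4 and DRAL replicate 4. In ALDR against DRAL, 2 of 8 listed genes were called, beside 12.3% of all genes: Pck1 was higher (0.86 ± 0.24, edgeR BH-adjusted p = 0.0286) and Gys2 lower (-1.11 ± 0.35, edgeR BH-adjusted p = 0.0435). Both calls stood near the threshold. Leaving out 1 library lost the Pck1 call in 6 of 10 cases (ALDR replicates 1, 2, 3 and 5, DRAL replicates 2 and 3, adjusted p 0.0539 to 0.072) and the Gys2 call in 8 of 10 (ALDR replicates 1, 2, 3 and 5, DRAL replicates 1, 2, 3 and 5, adjusted p 0.0553 to 0.104). Without the 3 libraries with high albumin neither was called (0.0808 and 0.0655).

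At 5 months Gys2 was higher in AL fat, with 54.2, 46.1 and 82.4 CPM, than in ALDR fat, with 20.6, 12.1 and 13.2 CPM. It changed by -2.00 ± 0.46 (edgeR BH-adjusted p = 0.00305) with no overlap. The muscle synthase Gys1, named by the rule for other pathway genes, stood at 53.2 ± 4.93 CPM in AL against 136 ± 29.5 CPM in DR at 26 months (SD, n = 3), and 46.4 ± 9.04 CPM in DRAL (n = 5). It rose by 1.36 ± 0.19 in DR against AL (edgeR BH-adjusted p = 6.57e-05), and its log2 fold change in DRAL against DR was -1.55 ± 0.16 (edgeR BH-adjusted p = 4.98e-06). Muscle markers stood higher in DR than in DRAL fat as well, and with the muscle and liver marker covariates these Gys1 values were 1.20 ± 0.23 (0.00251) and -1.27 ± 0.26 (0.0127). Ppp1r3b held 14.8, 18.9 and 28.9 CPM in AL and 36.2, 30.1 and 48.5 CPM in DR fat. The groups did not overlap, but the difference missed the threshold (0.88 ± 0.34, edgeR BH-adjusted p = 0.0661). It passed without AL replicate 3 (0.034), from a range of 0.034 to 0.232 over 14 settings. The other Ppp1r3b levels in WAT ranged from 15.7 to 47.7 CPM and gave no call.

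**Figure D2:**
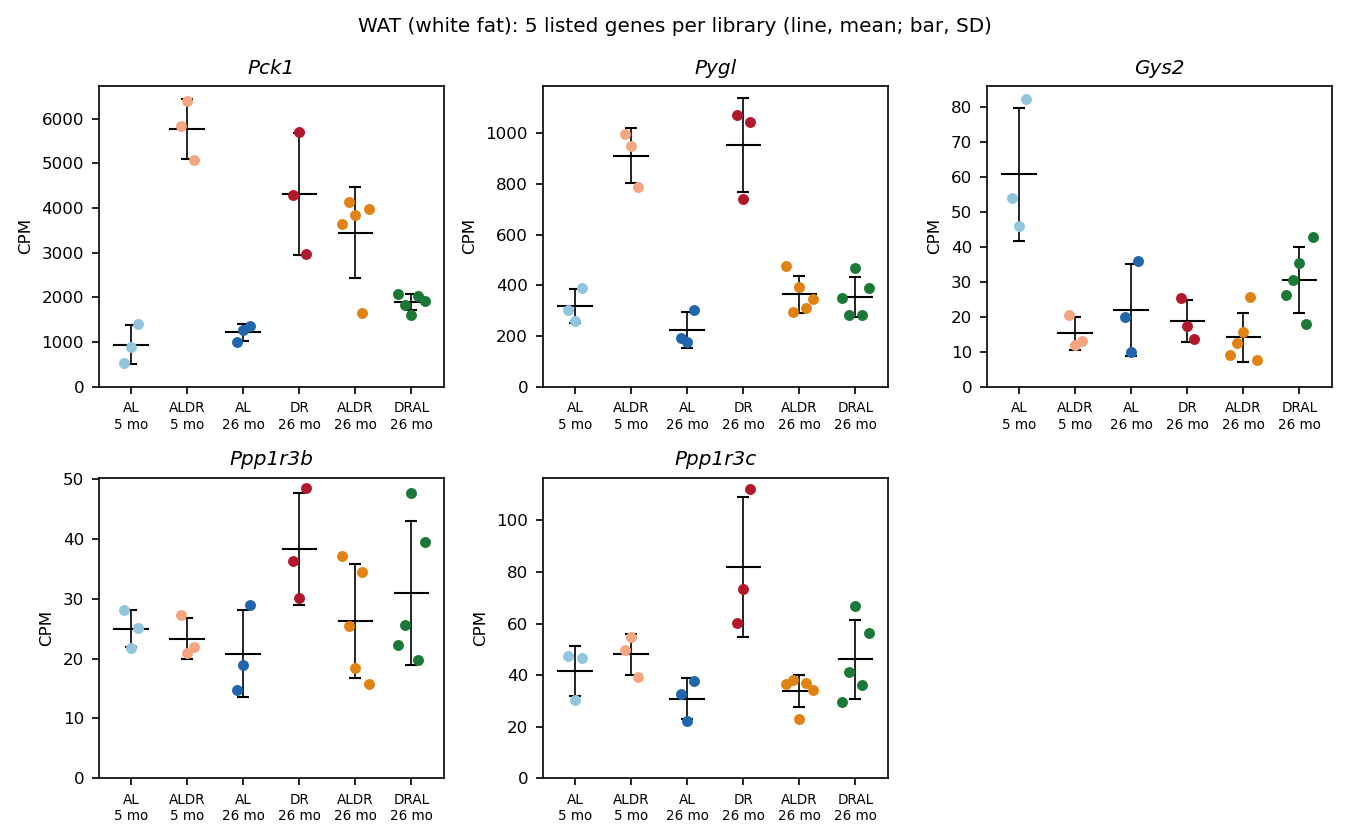
CPM (linear axes from 0) of 5 listed genes in each of the 22 WAT libraries, by diet and age, with mean (line) and SD (bar). Pck1 has its highest mean in ALDR at 5 months (5769.8 ± 665 CPM), Pygl is at least 741 CPM in DR and ALDR at 5 months and at most 477 CPM elsewhere, and Gys2 is highest in AL at 5 months.

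The hepatic genes of the list marked single WAT libraries rather than groups. G6pc held 6.59 CPM in AL replicate 3 and 17.1 CPM in ALDR replicate 2 at 26 months and 10.9 CPM in AL replicate 2 at 5 months, and at most 2.04 CPM in the other 19. Fbp1 held 16.1, 20.9 and 21.9 CPM in these 3 libraries and at most 2.04 CPM elsewhere, and Pklr 6.18, 3.46 and 5.98 CPM against at most 0.170 CPM. Those 3 libraries had all 7 hepatocyte markers other than Cyp2e1 above 20 CPM, with a summed level of 1799 to 2684 CPM against 17.9 to 141 CPM in the other 19, and fibrinogen beta (Fgb) at 66.9 to 91.2 CPM against 0 to 3.66 CPM, with 0 counts in 11 libraries. The eighth marker, Cyp2e1, did not follow this split: it was 1952 to 2808 CPM in DR and 1969 to 3797 CPM in ALDR fat at 5 months, and 183 to 390 CPM in AL fat. With all libraries, edgeR called none of G6pc, Fbp1 and Pklr in any WAT comparison. DESeq2 called Fbp1 in 2 (ALDR against DRAL at 26 months and ALDR against AL at 5 months), and edgeR called it in ALDR against DRAL without ALDR replicate 4 (BH-adjusted p = 0.0425, from 0.0207 to 0.352 over 17 settings). Ppp1r3g held 0 to 7 counts in each WAT library, and all 5 DRAL libraries held 0. The highest counts, 7 and 5, were in ALDR replicate 2 at 26 months and AL replicate 2 at 5 months, both with high albumin. The filter on low counts removed Ppp1r3g from the WAT tests. With no filter edgeR called it in no comparison, with the smallest BH-adjusted p, 0.105, in ALDR against DRAL at 26 months.

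**Figure D3:**
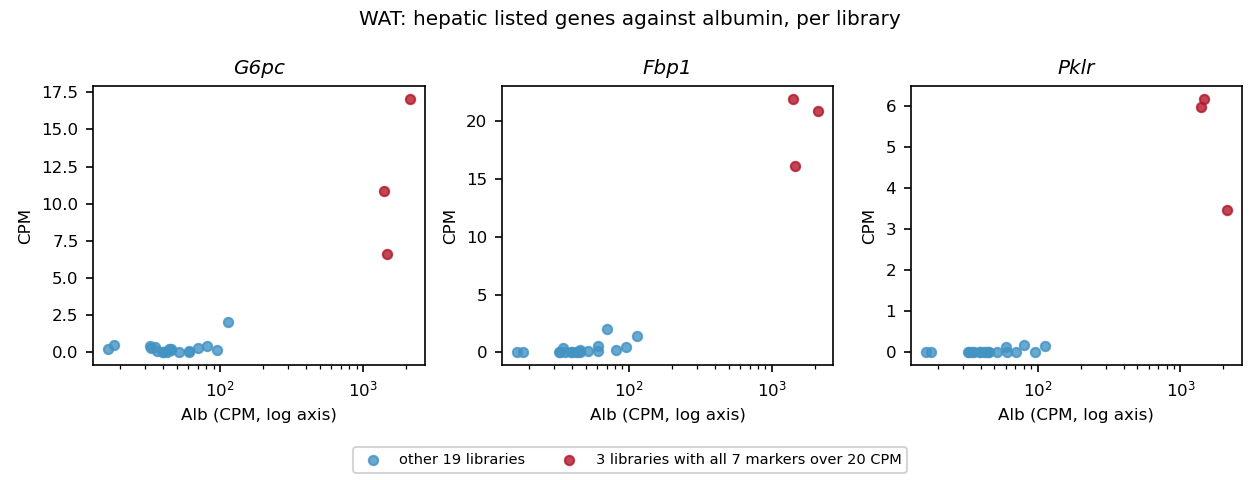
CPM of G6pc, Fbp1 and Pklr (linear axes) against albumin (Alb, log axis) in the 22 WAT libraries, 1 point a library. The 3 libraries with Alb of at least 1398 CPM hold G6pc from 6.59, Fbp1 from 16.1 and Pklr from 3.46 CPM upwards, above all other libraries.

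Other pathway genes of WAT moved in large numbers with lifelong restriction. Their lists were chosen with earlier results of these data known, so the shares beside all genes are a description. In DR against AL at 26 months, 54 of 87 were called (62.1%, 48 higher and 6 lower), beside 26% of all genes, with a median log2 fold change of 0.64 against -0.0012 over all genes tested. By list these were 16 of 26 glycogen genes, 22 of 31 of gluconeogenesis and glycolysis, 8 of 21 regulators and 8 of 9 of glyceroneogenesis. Macrophage markers were lower in DR in this comparison (440 to 706 CPM, against 1718 to 3048 CPM in AL), and their part in these calls was not tested. The smallest adjusted p belonged to Gpi1, which interconverts glucose 6-phosphate and fructose 6-phosphate (1.26 ± 0.11, edgeR BH-adjusted p = 1.73e-06), Gbe1, the glycogen branching enzyme (1.98 ± 0.21, 4.82e-06), and Pcx, pyruvate carboxylase (2.16 ± 0.23, 6.13e-06). Pcx stood at 2996 ± 69.0 CPM in DR against 672 ± 130 CPM in AL fat (SD, n = 3). Gk, glycerol kinase, fell by 0.96 ± 0.18 (edgeR BH-adjusted p = 0.000657), and Pfkp and Ppp1cc, a platelet-type phosphofructokinase and a phosphatase catalytic subunit, were also lower (-0.84 ± 0.18 and -0.41 ± 0.09, adjusted p 0.002 and 0.00359).

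Late restriction gave fewer calls. In ALDR against AL at 26 months, 8 of 87 other pathway genes were called (7 higher, 1 lower), beside 4.36% of all genes, among them Gpt2, Gpat3 and Lpin1 (0.72 ± 0.13, 0.65 ± 0.13 and 0.93 ± 0.21, edgeR BH-adjusted p = 0.00543, 0.0109 and 0.0184), an alanine aminotransferase and enzymes of glycerolipid synthesis. The one that fell was Cebpb, a transcription factor (-0.63 ± 0.14, edgeR BH-adjusted p = 0.0169). The median log2 fold change was 0.19, against 0.0052 over all genes tested. That count was 1, 3 and 4 without AL replicates 1, 2 and 3, 4 without ALDR replicate 2, 15 without ALDR replicate 4, 5 with only the groups compared and 3 without the libraries with high albumin. In the same order, the calls over all genes went from 690 to 191, 339 and 252, 333, 1159, 177 and 158.

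In ALDR against DR, 41 of 87 were called (4 higher, 37 lower, median -0.44 against 0.012 over all genes), beside 12.8% of all genes, including Gpi1 (-1.04 ± 0.10, edgeR BH-adjusted p = 4.39e-06), Pcx and Srebf1. It was 26 with muscle and liver marker covariates and 27 without DR replicate 3, where the calls over all genes fell from 2021 to 548 and 878. In DRAL against DR, 54 of 87 were called (4 higher, 50 lower, median -0.63 against -0.012), beside 30.5%, with Gpi1 and Pcx again at the smallest adjusted p of the lower genes. With the marker covariates that count was 16, and the calls over all genes fell from 4825 to 446. In ALDR against DRAL, 17 of 87 were called (14 higher, 3 lower, median 0.070 against 0.022), beside 12.3% of all genes, and Fbp2, the muscle isoform of fructose bisphosphatase, had the smallest adjusted p (2.18 ± 0.40, edgeR BH-adjusted p = 0.00282). Skeletal muscle markers summed to 2949 CPM in ALDR replicate 2 and 910 CPM in ALDR replicate 5, against at most 52.0 CPM in DRAL fat. With the marker covariates Fbp2 stood at 1.43 ± 0.37 (edgeR BH-adjusted p = 0.0406). In that comparison 2 of 87 were called with them (over all genes 551, against 1953 without), and without the libraries with high albumin 5 (1329). The count was 11 with only the groups compared (1353) or with no filter on low counts (1543). Without ALDR replicates 1, 2, 3 and 5 it was 10, 6, 10 and 9 (1352, 1103, 1255 and 1102). Without DRAL replicates 2, 3, 4 and 5 it was 9, 6, 11 and 11 (1332, 1177, 1274 and 1483).

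At 5 months, 38 of 87 were called in WAT (31 higher, 7 lower, median 0.28 against -0.012 over all genes), beside 29.2%, led by Gpi1 (1.00 ± 0.11), Gpd2 (1.87 ± 0.24) and Pcx (1.67 ± 0.23). The same difference between ages was called for 2 of 87 by edgeR and 7 by DESeq2, and leaving out 1 library at a time gave 0 to 4. Gpi1 responded less at 26 months (difference -0.78 ± 0.15, edgeR BH-adjusted p = 0.0201), and Gk, which fell at 5 months by 1.48 ± 0.18, had a difference of 1.06 ± 0.24 (edgeR BH-adjusted p = 0.033). The genes whose level ran closest to Pck1 over the 22 WAT libraries were Agbl3, Nupr1l, Pkd2l2, Pde3b and Fam13a (Pearson correlation of log2 CPM 0.934 to 0.957 among 14501 genes). Pygl had 0.724 and Gys2 -0.623. These are descriptions over libraries that share diet groups.

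In BAT, Pck1 and Pygl gave no edgeR call in any of 7 comparisons, and the gene that changed in old mice was Gys2, lower in DR. DESeq2 called Pck1 in 2 of them, ALDR against DRAL and ALDR against AL at 5 months. Tests covered 20 libraries and 13845 genes.

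Gys2 held 76.2, 34.8 and 60.2 CPM in AL and 11.0, 18.3 and 9.70 CPM in DR brown fat at 26 months. ALDR libraries held 93.3, 25.9, 28.7, 53.9 and 49.1 CPM, and DRAL libraries 35.4, 31.6 and 48.9 CPM. Every DR library was below every AL, ALDR and DRAL library. In DR against AL, 1 of 7 listed genes was called, beside 11.5% of all genes: Gys2, which changed by -2.18 ± 0.50 (edgeR BH-adjusted p = 0.0101). In ALDR against DR, again 1 of 7 was called, beside 5.21% of all genes, and Gys2 was higher by 1.99 ± 0.47 (edgeR BH-adjusted p = 0.0224). In DRAL against DR it was higher by 1.62 ± 0.50 and narrowly missed the threshold (edgeR BH-adjusted p = 0.0515). By edgeR, 0 of 7 were called in that comparison, beside 8.4% of all genes, 2 had an unadjusted p under 0.05, and DESeq2 called 1.

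Both Gys2 calls were lost without DR replicate 1 (edgeR BH-adjusted p = 0.0549 against AL and 0.135 against ALDR) or DR replicate 3 (0.051 and 0.093). The adjusted p ranged from 0.000719 to 0.106 over 13 settings against AL and from 0.0011 to 0.135 over 15 against ALDR. Muscle markers, 8 genes, summed to 837 to 3395 CPM in DR, 1.76 to 488 CPM in AL, 319 to 4722 CPM in ALDR and 7.0 to 436 CPM in DRAL brown fat. The 5 brown fat markers summed to 3236 to 4189 CPM in DR, below the 5122 to 7628 CPM of AL, 5131.5 to 8515 CPM of ALDR and 5293 to 7164 CPM of DRAL. With liver and muscle markers as covariates, Gys2 in DR against AL was -1.77 and not called (edgeR BH-adjusted p = 0.106), while in ALDR against DR it was 1.90 and called (0.0368). The liver covariate included Cyp2e1, which itself differed with diet, at 52.1 to 75.7 CPM in DR and 5.14 to 15.1 CPM in AL. The part of the brown fat markers was not tested. At 5 months Gys2 held 49.6, 55.4 and 24.4 CPM in AL and 9.05, 28.2 and 22.5 CPM in ALDR, which overlapped (-1.10 ± 0.47, edgeR BH-adjusted p = 0.126).

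Pck1 held 4486, 3708 and 3732 CPM in AL, 3369.5, 4113 and 5176 CPM in DR, 3620, 6393, 5371, 6923 and 4114 CPM in ALDR and 2241, 3598 and 3706 CPM in DRAL brown fat at 26 months. The DR and AL libraries were mixed, with a difference of 0.086 ± 0.24 on the log2 scale (edgeR BH-adjusted p = 0.858). Against DRAL, ALDR was higher by 0.73 ± 0.22, not called by edgeR (BH-adjusted p = 0.103, 0.018 to 0.667 over 15 settings). It passed without ALDR replicate 1 (0.0299) and with DESeq2 (0.018). By edgeR, 0 of 7 listed genes were called in that comparison, beside 2.02% of all genes, with 1 at an unadjusted p under 0.05. In ALDR against AL at 26 months also 0 of 7 were called, beside 1.3% of all genes, with 0 at an unadjusted p under 0.05 and 0 by DESeq2. At 5 months Pck1 held 3206, 3137 and 4511 CPM in AL and 5452, 5109 and 6335.5 CPM in ALDR. These did not overlap, and the difference of 0.64 ± 0.24 was not called (edgeR BH-adjusted p = 0.0852). It was called in 3 of 13 settings, DESeq2 among them (0.0411).

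Pygl held 1300.3, 693 and 1207 CPM in AL, 1115, 1204 and 1054.5 CPM in DR, and 1200.5, 1262 and 1209 CPM in DRAL brown fat at 26 months. ALDR libraries held 1379, 1059, 1068, 1153 and 718 CPM. The 4 old groups overlapped throughout, and the difference of DR from AL was 0.076 ± 0.23 (edgeR BH-adjusted p = 0.871). At 5 months it held 1357, 837.5 and 837.4 CPM in AL and 695, 769 and 628 CPM in ALDR. Every ALDR value was lower than every AL value, but the difference was not called (-0.54 ± 0.23, edgeR BH-adjusted p = 0.133).

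In ALDR against AL at 5 months 2 of 7 listed genes were called in BAT, beside 14.4% of all genes. Ppp1r3c held 155, 118 and 132 CPM in AL and 77.8, 83.4 and 85.3 CPM in ALDR. It fell by 0.72 ± 0.20 on the log2 scale (edgeR BH-adjusted p = 0.0242) with no overlap. The call was lost without AL replicate 1 (0.102) or without any 1 of the 3 ALDR replicates (0.0936, 0.0602 and 0.0617). Fbp1 rose by 2.26 ± 0.58 (edgeR BH-adjusted p = 0.0157) at very low levels, from 0.232, 0.131 and 0.437 CPM (3, 2 and 8 counts) to 0.936, 1.83 and 1.24 CPM (12, 30 and 22 counts). That call was lost without AL replicate 1 (0.0622), AL replicate 2 (0.0799) or ALDR replicate 2 (0.0613). Both genes were called with liver and muscle marker covariates, at -0.75 (edgeR BH-adjusted p = 0.0395) and 1.72 (0.046). The 5 brown fat markers summed to 3574.5 to 5242 CPM in ALDR and 6288 to 8751 CPM in AL at 5 months, and the 5 epithelial markers to 34.4 to 83.8 and 6.28 to 12.9 CPM, all detected. The part of these cell types was not tested. Cyp2e1 was also higher there, 86.5 to 201 CPM in ALDR against 5.72 to 10.1 CPM in AL, while the other 7 hepatocyte markers summed to at most 5.50 CPM in ALDR. At 26 months Fbp1 held 2.22, 2.44 and 1.22 CPM in DR and 0.451, 0.254 and 1.18 CPM in AL, without overlap and not called (1.58 ± 0.54, edgeR BH-adjusted p = 0.0683). It passed without AL replicate 3 (0.0315), which held 22.8 CPM of albumin, and with marker covariates, at 2.71 (0.0144). With these covariates Fbp1 was also called in ALDR against DR (0.0428).

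At 26 months Ppp1r3c stood at 106 ± 11.0 CPM in AL, 98.5 ± 21.5 in DR (n = 3 each), 104 ± 29.8 in ALDR (n = 5) and 126 ± 9.96 in DRAL (n = 3) and gave no call. Ppp1r3b held 485, 383 and 432 CPM in AL and 319, 343 and 274 CPM in DR. Every DR library was lower, but the difference was not called (-0.47 ± 0.32, edgeR BH-adjusted p = 0.369). Ppp1r3b in ALDR varied from 207 to 633 CPM.

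Ppp1r3g was detected in BAT near the limit of counting. It held 1.29, 1.14 and 1.16 CPM in DR (18, 7 and 19 counts) and 0.180, 0.571 and 0.412 CPM in AL (2, 9 and 7 counts) at 26 months. The DR libraries were higher without overlap, as were those of ALDR at 5 months (0.858, 0.306 and 0.955 CPM) over AL (0.077, 0.066 and 0.218 CPM). Neither difference was called: 1.57 ± 0.78 (edgeR BH-adjusted p = 0.207) and 2.41 ± 0.89 (0.0797). DRAL held 0, 0.0716 and 0.539 CPM and was lower than DR by 2.44 ± 0.84 (log2 fold change -2.44, edgeR BH-adjusted p = 0.0821). That difference passed without DRAL replicate 3 (0.0253). G6pc and Pklr held 0 to 2 counts in every BAT library, below the 3 counts used as a floor.

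**Figure D4:**
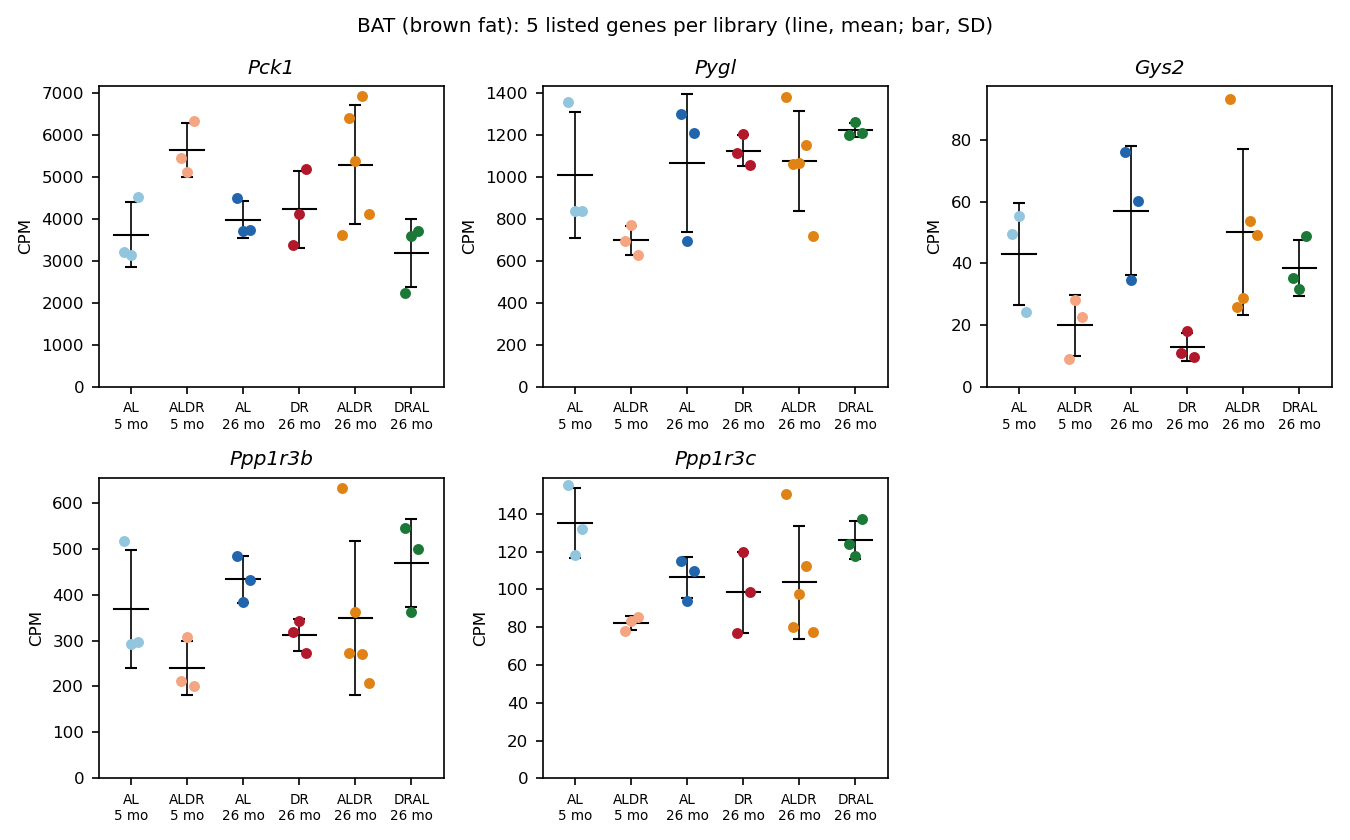
CPM (linear axes from 0) of 5 listed genes in each of the 20 BAT libraries, by diet and age, with mean (line) and SD (bar). Gys2 has its lowest mean in DR (9.70 to 18.3 CPM), Pck1 and Pygl overlap between AL and DR at 26 months, and Ppp1r3c is at most 85.3 CPM in all ALDR libraries at 5 months.

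The other pathway genes called in BAT were 9 of 82 in DR against AL (5 higher, 4 lower, 11% beside 11.5% of all genes), 8 in ALDR against DR (beside 5.21%), 9 in DRAL against DR (beside 8.4%), 3 in ALDR against DRAL (beside 2.02%) and 19 in ALDR against AL at 5 months (8 higher, 11 lower, 23.2% beside 14.4%). In ALDR against AL at 26 months edgeR called 0, with 16 at an unadjusted p under 0.05 and 7 called by DESeq2, and 10, 1 and 1 without ALDR replicates 1, 3 and 5. Over all genes the calls were 180 in the main fit and 835, 121 and 273 without these replicates. The median log2 fold changes lay between -0.15 and 0.23 over the 7 comparisons. The counts of pathway genes moved with single libraries and with the fit, as did the calls over all genes, given in brackets. In DR against AL the count was 4 without AL replicate 3 (687) or DR replicate 1 (708), 6 without DR replicate 2 (1042) and 5 without DR replicate 3 (957), and 2 with marker covariates (421), from 9 (1594). In ALDR against DR it was 1, 4 and 3 without DR replicates 1, 2 and 3 (95, 351 and 380), and 1 with only the groups compared (63), from 8 (722). In DRAL against DR it was 3, 4 and 3 without DR replicates 1, 2 and 3 (425, 655 and 598), 2, 4 and 4 without DRAL replicates 1, 2 and 3 (557, 720 and 630), 1 with covariates (79), 5 with no filter on low counts (948) and 20 with only the groups compared (1251), from 9 (1163). In ALDR against DRAL it ranged from 0 without DRAL replicate 2 (42) to 12 without ALDR replicate 1 (737), and was 0 with covariates (9) or only the groups compared (6), from 3 (279). At 5 months it was 9 and 10 without AL replicates 1 and 2 (1139 and 1048), 7, 11 and 9 without ALDR replicates 1, 2 and 3 (835, 1475 and 1190), 10 with covariates (1417) and 31 with only the groups compared (2936), from 19 (1997).

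The gene with the smallest adjusted p was Pck2, the mitochondrial phosphoenolpyruvate carboxykinase. It stood at 12.4 ± 1.21 CPM in AL against 44.1 ± 9.66 CPM in DR at 26 months (SD, n = 3) and rose by 1.83 ± 0.17 (edgeR BH-adjusted p = 1.18e-05). It also rose at 5 months, by 1.57 ± 0.16 (edgeR BH-adjusted p = 2.85e-05), from 17.3 ± 0.107 to 51.2 ± 9.97 CPM. In ALDR it stood at 17.5 ± 2.67 CPM (n = 5) and was lower than in DR (-1.33 ± 0.14, edgeR BH-adjusted p = 0.000172). Hk1, a hexokinase, changed by -0.94 ± 0.18 in DR against AL and by -1.27 ± 0.18 at 5 months (edgeR BH-adjusted p = 0.00341 and 0.000378).

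No listed gene was called by edgeR in the difference of the BAT responses at 26 and 5 months, beside 0.0144% of all genes, with 2 of 7 at an unadjusted p under 0.05 and 0 by DESeq2. The 2 were Ppp1r3c (0.68 ± 0.27, edgeR BH-adjusted p = 0.303) and Fbp1 (-2.01 ± 0.76, 0.282). Over the 20 BAT libraries, Pck1 ran closest to Pde3b, Cmtm4, Txlng, Cab39 and Slc25a42 (Pearson correlation 0.883 to 0.899 among 13029 genes). It had -0.341 with Pygl and -0.632 with Ppp1r3b. Pde3b, a phosphodiesterase that lowers cAMP in fat cells, was among the 5 closest in both depots.

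**Figure D5:**
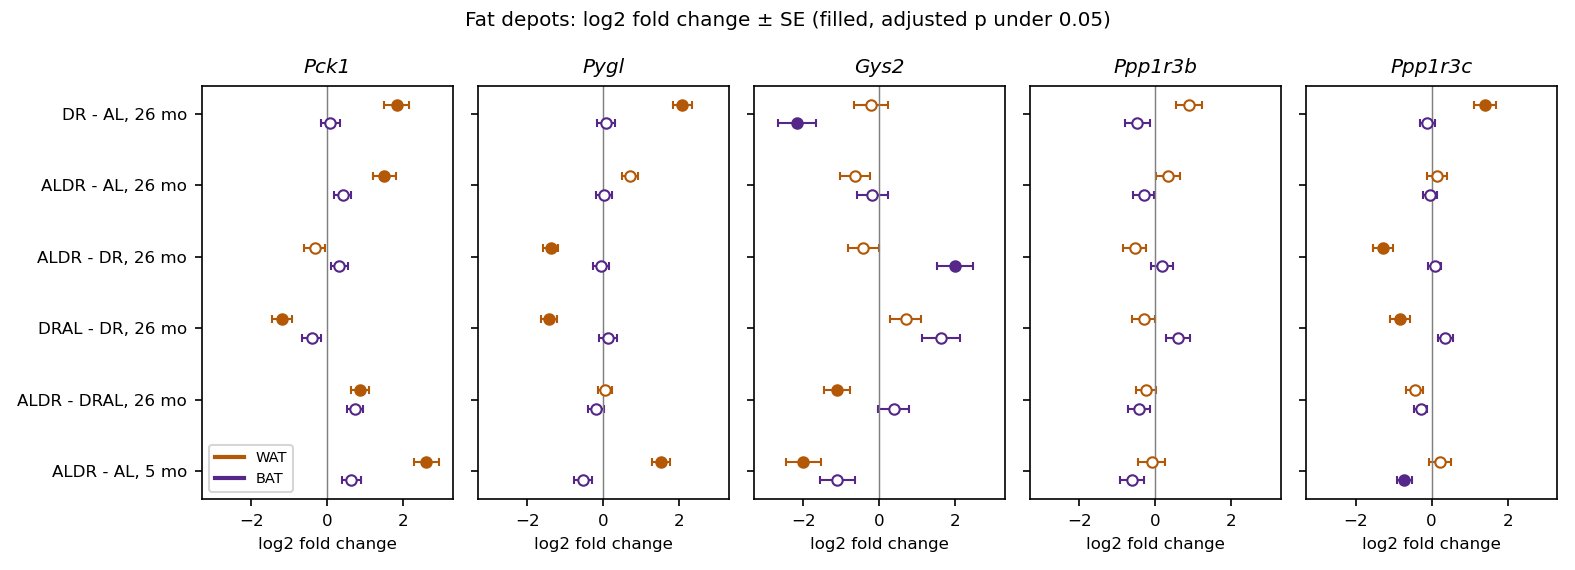
Log2 fold change (x axis, ± SE) of 5 listed genes in 6 comparisons (y axis) in WAT and BAT; filled points have an edgeR BH-adjusted p under 0.05. Pck1 and Pygl are called in WAT and in no BAT comparison, and Gys2 in DR against AL is called in BAT (-2.18) and not in WAT (-0.21); differences between the depots were not tested.

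The contrast of ALDR with DRAL at 26 months was the only one used here in all 3 tissues, with separate tables and library types, so the values are set side by side without a test of the difference. Pck1 was 1.97 ± 0.37 in liver, 0.86 ± 0.24 in WAT and 0.73 ± 0.22 in BAT on the log2 scale. Gys2 was 1.08 ± 0.11, -1.11 ± 0.35 and 0.37 ± 0.42 in the same order. Pygl was -0.67 ± 0.10, 0.037 ± 0.18 and -0.19 ± 0.21, and Ppp1r3c -0.81 ± 0.17, -0.45 ± 0.23 and -0.29 ± 0.18. Ppp1r3g, at 15.6 to 24.9 CPM in ALDR liver, held at most 0.384 CPM in ALDR WAT, in replicate 2 with its high albumin, and 0.963 CPM in ALDR BAT.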

How the data were processed

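Per the labels' protocols, rRNA-depleted RNA of WAT and liver was read from both ends and polyA-enriched RNA of BAT from one end, in stranded libraries. The authors deposited 1 table of raw read counts per gene for each tissue. Trim Galore 0.3.7, TopHat2 2.0.14, DESeq2 and GRCm38 are named per the submitters' processing notes. The counting program, its annotation and its use of strand are not given in the sources used here. Symbols were matched for 25012 of 25913 gene identifiers.

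Each table was fitted once with all its groups (edgeR 4.0.16 quasi-likelihood test in R 4.3.3, filterByExpr, TMM factors, Benjamini-Hochberg adjustment over all genes tested), and the procedure was tested on simulated data. CPM are counts scaled to the TMM-adjusted library size. Replicate numbers did not pair libraries (mean correlation of deviations for the same number 0.0029 in WAT, -0.025 in BAT and -0.19 in liver), so no block was used. Alternatives were DESeq2 1.42.0, RLE size factors, no filter on low counts, a replicate block, marker covariates, only the groups compared, and each library left out. The marker covariates were the mean log2 CPM of the 8 hepatocyte markers, Cyp2e1 included, and of the 8 muscle markers. Cyp2e1 differed with diet in both fat depots. Leaving out WAT libraries with hepatocyte markers, and splitting the liver libraries by heart-gene counts, were added after seeing the data.

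The 9 genes and all lists were chosen with earlier results of these data known. Named are all 9 genes, in each comparison up to 3 higher and 3 lower called genes of the 4 other pathway lists with the smallest adjusted p, and the 5 genes most alike in level. Alb is named as an example of the markers. Other named genes were chosen after their values were seen. They are Fgb, Cyp2e1, Myh6, Nppa, the epithelial markers Krt8, Krt18, Krt19, Cdh1 and Epcam, and in liver Ppp1r3a, Ppp1r3d, Ppp1r3e and Ppp1r3f.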

Additional observations from a re-analysis of the deposited data

Results flagged for a closer look

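In groups of 5 libraries, a lowest or highest value was noted where its gap to the next library exceeded 0.71 of the group's range, which chance gives in about 1 of 20 groups; 22 groups were examined and 6 were noted. In WAT of ALDR mice at 26 months, Ppp1r3c was lowest in replicate 3 (23.1 CPM, gap 0.754 of the range) and Pck1 lowest in replicate 4 (1646.5 CPM, 0.808). In the same group, G6pc (17.1 CPM, 0.982), Fbp1 (20.9 CPM, 0.908) and Pklr (3.46 CPM, 0.962) were highest in replicate 2, the ALDR library with 2116 CPM of albumin. In WAT of DRAL mice, Fbp1 was highest in replicate 5 (0.232 CPM from 4 counts, 0.749), near the level of 3 counts.

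For a pair of genes, every restricted library lay on one side of AL in WAT and on the other side in BAT. Ppp1r3b in DR against AL at 26 months was higher in WAT (0.88) and lower in BAT (-0.47), a difference of log2 fold changes of 1.35. Pygl in ALDR against AL at 5 months was higher in WAT (1.52) and lower in BAT (-0.54), a difference of 2.05. Over all genes tested in both depots, 3.35% and 4.96% had groups that lay on opposite sides without overlap in these comparisons, against 1 of 6 listed genes in each, and nothing is read from these counts. Neither difference was tested, because the depots were counted in separate tables from different library types.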

How the results depend on the processing

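Of the listed genes' 18 calls in fat, 7 kept call and direction in every alternative run, and over 252 alternative fits 209 did, 43 lost the call and 0 changed direction. The 90 alternative liver values of the 9 genes moved by less than 1 SD of log2 CPM within groups. Leaving out 1 of 3 libraries can hardly move a group mean that far, so nothing on stability is read from this. The number of listed genes called in WAT ALDR against AL (1) became 2 with DESeq2 or the replicate block, 0 with only the groups compared, and 0 to 2 with each library left out. In WAT ALDR against DR (2) and DRAL against DR (3) marker covariates left 1 each. In WAT ALDR against DRAL (2) the replicate block or only the groups compared left 1, covariates or leaving out the libraries with hepatocyte markers 0, and leaving out each library 0 to 3. In BAT DR against AL (1) only the groups compared gave 2, and leaving out each library 0 to 2. In BAT ALDR against DR (1) the replicate block or only the groups compared gave 0, covariates 2, and leaving out each library 0 to 1. In BAT DRAL against DR (0) DESeq2 or only the groups compared gave 1, and leaving out each library 0 to 1. In BAT ALDR against DRAL (0) DESeq2 gave 1, and leaving out each library 0 to 1. In BAT ALDR against AL at 5 months (2) leaving out each library gave 0 to 2. DESeq2 raised the other pathway genes called from 2 to 7 in the WAT difference between ages, and in BAT from 0 to 7 in ALDR against AL, 8 to 15 in ALDR against DR, 9 to 15 in DRAL against DR, 3 to 6 in ALDR against DRAL and 0 to 2 in the difference between ages. Over all genes the calls also rose, from 212 to 716 in that WAT difference. In BAT, in the same order, they rose from 180 to 644, 722 to 1124, 1163 to 1507, 279 to 578 and 2 to 159. The cause was not tested. The replicate block took the other pathway genes called in BAT ALDR against DR from 8 to 4 and in the WAT difference between ages from 2 to 0, and changed no other count by more than 1.5 times. Counts of 0 to 31 limit Ppp1r3g and Fbp1 in BAT.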
